A study of Oncorhynchus kisutch with 221 samples.

Results

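A group of 50 array probes whose values rose and fell with the probe C249R116 in the white muscle of ocean coho salmon were followed through the other life stages of the fish. The 50 were chosen from 43636 probes on a salmonid array in a series of steps. First, 18589 probes had a value in at least 50% of the fish of each of 6 season labels. Of these, 594 had an SD of at least 1 among the Ocean_Fall fish. Each was then assigned to whichever of the 3 probes C249R116, C189R113 and C108R116 it correlated with best over the 140 Ocean_Summer and Ocean_Fall fish. The 50 assigned to C249R116 with the highest Pearson r, C249R116 included, are the members described here. The values of the summer and fall fish therefore chose the members, and what those fish show is given as a description.

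The members are not equally close to C249R116. C151R127 followed it with r = 0.97 and C126R030 with r = 0.92, while the median over the other 49 members was 0.42. Counting C249R116 itself, 9 members had an r of at least 0.7, 8 lay from 0.5 to 0.7 and 33 lay below 0.5. The last 2 members were C232R008, at 0.30, and C203R087, at 0.29. Just outside the limit lay C122R114 and C200R120, both at 0.29, so the edge of the group is a matter of rank and not of a gap in r. The array identifiers could not be tied to genes with the tables used here (0 matched), so no gene role can be given, and the labelled tissue was not checked against muscle markers.

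Coho salmon (Oncorhynchus kisutch) hatch in rivers, live there as parr, turn into silvery smolts that tolerate salt water, and then feed and grow in the sea. White muscle is the fast, glycolytic swimming muscle that makes up most of a salmon's body. It grows throughout life by adding and enlarging fibres and serves as a protein reserve, so its transcripts are known to shift with growth, feeding and smolting.

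RNA from the white muscle of 221 fish, separate animals by the labels' fish numbers, was set against a common pool of all the muscle samples on 2-colour arrays, 1 array per fish. The 9 Parr_River fish were hatchery fish from the Chilliwack River in 2008, with a median fork length of 5.0 cm. The 48 Smolt_River fish (28 hatchery, 20 wild) came from the Capilano (15), Chehalis (10), Puntledge (9), Chilliwack (8) and Salmon (6) rivers. The 8 Chilliwack smolts were wild fish of 2008 and the other 40 were of 2009. The 15 Ocean_Spring fish were all wild, from the southern Strait of Georgia (the label south_SoG) in 2009. There were 64 Ocean_Summer fish (26 hatchery, 38 wild; 7 of 2008), 76 Ocean_Fall fish (30 hatchery, 46 wild; 8 of 2008) and 9 Ocean_Winter fish (5 hatchery, 4 wild; all of 2009), from the Strait of Georgia and, under the label WCVI, the west coast of Vancouver Island. A further label, region, differed among fish of the same stage and catch area. Spring fish carried ECVI, Fraser, Chilliwack_R or Puget_Sound, and most west coast summer fish carried Columbia. Region was in no fit, so the comparisons of stage and area mix regions, and its part was not tested. Median fork length rose from 11.4 cm in smolts and 11.1 cm in spring to 17.8 cm in summer, 25.4 cm in fall and 35.3 cm in winter.

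Neither the log base nor the direction of the values is stated. They are taken as log2 of fish over pool, the likely reading, and every direction given rests on it. Fish that make up the pool should average a linear ratio near 1, or 0 on the log2 scale. For the members this average, as a median over probes, came to -0.10 for fish over pool, 1.31 for pool over fish and 0.49 for natural logs. Of 24310 pairs of arrays, 90 correlated below -0.3, the lowest at -0.43; since the fish RNA carried 1 dye throughout, per the labels, the direction was kept. The fish shared 60 slides of up to 4 arrays. In whole tissue, fewer cells of a type and less RNA per cell cannot be told apart. At the leading probes 2 fish stood apart from their stage: parr replicate 9, which was low, and spring replicate 2, which was high. Where both were computed, results that rest on them are given with and without them. The number of arrays limits the precision.

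C249R116 was far above the pool in parr and far below it in most ocean fish. The 9 parr read 3.07, 2.86, 3.04, 2.79, 3.33, 3.35, 3.003, 2.70 and, in replicate 9, -1.54. In smolts it ran from -8.30 to 0.58 with a median of -0.69. No smolt reached the level of the first 8 parr. In spring it ran from -5.93 to 2.48 with a median of -2.02, and without replicate 2 the highest spring fish read -0.24. In summer the lowest, median and highest were -7.39, -3.18 and 0.62, and in fall they were -7.60, -4.83 and 0.87. In winter the 9 fish read -0.24, 0.85, -5.78, -3.29, -0.99, -3.05, -0.40, -2.69 and -7.08. The ocean stages and the smolts overlapped over most of their range, and only parr replicates 1 to 8 lay above every other fish. The nearest was spring replicate 2, at 2.48 against 2.70 in parr replicate 8. By stage mean the order was parr (2.51 ± 1.54 SD, n = 9), smolts (-2.10 ± 2.52, n = 48), spring (-2.25 ± 2.29, n = 15), winter (-2.52 ± 2.64, n = 9), summer (-3.18 ± 1.95, n = 64) and fall (-4.41 ± 2.15, n = 76). From smolts to fall each mean differed from its neighbour by less than 1 SD. These means include parr replicate 9 and spring replicate 2. Without spring replicate 2 the spring mean lies below that of winter, so the order of those stages rests on that fish.

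Within a stage the fish were spread over a wide range. Of the 48 smolts, 27 lay between -1 and 1 and 14 lay below -4. In summer 11 of 64 lay between -1 and 1 and 23 below -4, and in fall 8 of 76 and 51 of 76 did. Of the 9 winter fish 4 lay between -1 and 1 and 2 below -4. The share of fish below -4 was 29.2% in smolts, 35.9% in summer and 67.1% in fall.

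**Figure D1:**
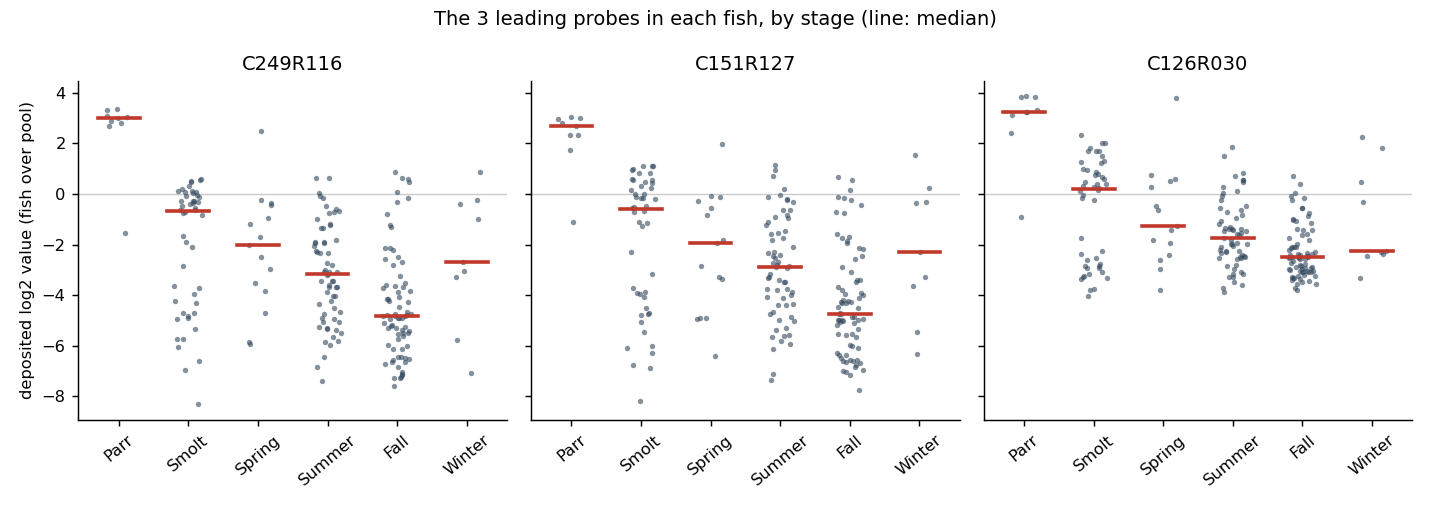
Deposited log2 value (vertical axis) of C249R116, C151R127 and C126R030 in each of the 221 fish (points), by stage, with the median as a line. All 3 are high in 8 of 9 parr and range over several log2 units within each of the other stages; the median of C249R116 goes from 3.003 in parr to -4.83 in fall.

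C151R127 and C126R030 repeated the pattern of C249R116 fish by fish. C151R127 ran from -1.12 to 3.02 in parr (median 2.67), from -8.20 to 1.12 in smolts (median -0.61) and from -7.76 to 0.65 in fall (median -4.72). Its low parr and its high spring fish, at 1.98, were the same 2 animals as for C249R116. C126R030 ran from -0.92 to 3.85 in parr (median 3.25), from -4.02 to 2.32 in smolts (median 0.20) and from -3.79 to 0.69 in fall (median -2.50). Its lowest value in any stage was -4.02, and its SD in fall was 1.05 against 2.15 for C249R116. Over the 9 winter fish the r with C249R116 was 0.99 for C151R127 and 0.88 for C126R030, and over the 15 spring fish it was 0.95 and 0.96 (0.94 and 0.95 without replicate 2). In parr these high values rest on 1 fish. They were 0.97 and 0.95 over all 9 parr, and 0.72 and 0.18 without replicate 9.

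The members did not form 1 block. Grouped by their correlations in summer and fall fish (average linkage, cut at r = 0.6, a choice made after values were seen), 10 members fell in a set with C249R116, 21 in a second set, 12 in 4 smaller sets and 7 stayed single. In the summer and fall fish the median r between pairs was 0.77 within the anchor set, 0.68 within the second set and 0.29 between them. In smolts, which were left out of the correlations of the choice and of the grouping, these medians were 0.83, 0.76 and 0.41. In spring fish they were 0.85, 0.33 and -0.05, and without replicate 2 they were 0.79, 0.34 and -0.04. In the 9 winter fish they were 0.93, 0.24 and 0.28, and in the 9 parr 0.89, 0.30 and 0.24. The parr medians include replicate 9 and are not given without it. Without it, the r of the other anchor set probes with C249R116 ran from -0.38 (C194R144) to 0.77 (C181R087). Over all 9 parr those probes had 0.95 and 0.89, so the high anchor set median in parr leans on 1 fish. In smolts, spring, summer and fall fish the probes of the second set thus moved with each other more than with the anchor set. In winter fish they did not, and in parr the medians were close. The members lay scattered over the array, in columns 11 to 256 and rows 5 to 164, with the closest pair 3.16 spots apart.

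The sets also had different life-stage profiles. The mean of the anchor set ran from -0.60 to 2.36 in parr (median 2.15), from -4.87 to 0.88 in smolts (median -0.30) and from -4.92 to 0.50 in fall (median -2.52). The mean of the second set ran from -2.31 to -1.34 in parr (median -1.52), from -2.17 to 2.26 in smolts (median -0.85) and from -2.21 to 2.98 in fall (median -1.37). By mean and by median, parr were the highest stage for the anchor set and the lowest for the second set. For the second set the summer median, at -1.51, was close to that of parr. The lowest summer fish, at -2.69, lay below every parr. Parr had the highest stage mean for 9 of the 10 probes of the anchor set, and fall the lowest for 8. Smolts had the highest stage mean for 17 of the 21 probes of the second set, and parr the lowest for 16. How often each stage is highest or lowest over all probes was not computed. These counts are therefore a description, and nothing particular to the members is read from them. Across fish of a stage the set means correlated with r = 0.60 in smolts, 0.46 in summer, 0.52 in fall and 0.02 in spring (0.03 without replicate 2). Their r was 0.38 in winter and 0.51 in parr (0.78 without replicate 9).

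**Figure D2:**
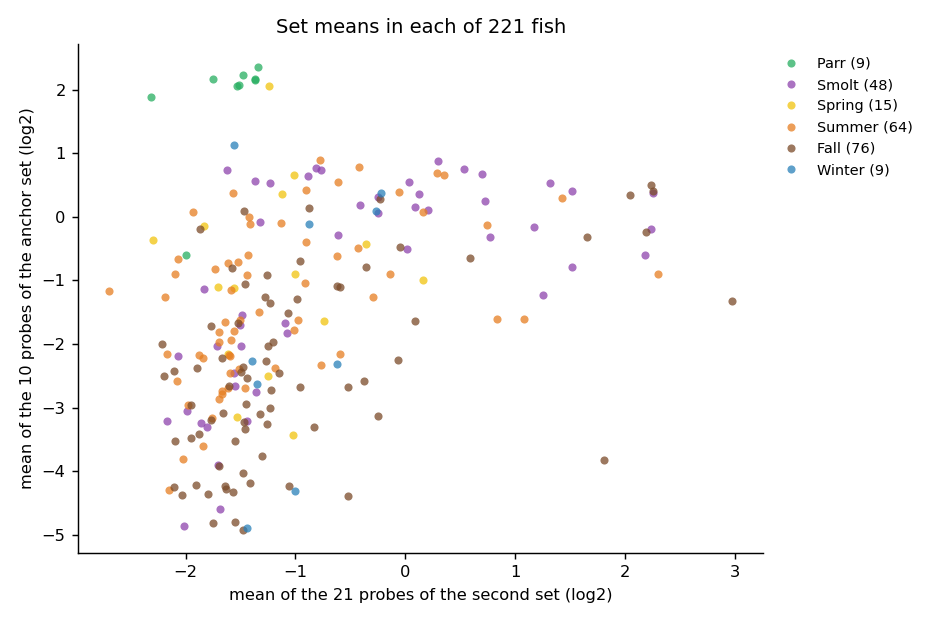
Mean log2 value of the 10 probes of the anchor set (vertical axis) against the mean of the 21 probes of the second set (horizontal axis), with 1 point for each of the 221 fish, coloured by stage. The parr other than replicate 9 lie at upper left, with anchor set means from 1.89 to 2.36 and second set means no higher than -1.34. The highest spring fish, with an anchor set mean of 2.06, reaches into their vertical range. Fish with a high second set mean seldom have a low anchor set mean, while fish with a low second set mean cover the whole vertical range.

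Whether the members follow C249R116 in fish left out of the correlations of the choice was asked in the 48 smolts. Of the other 49 members, 46 had a positive r with C249R116, and 34 had an r of at least 0.5. The median was 0.58, against -0.20 over the 593 variable probes other than C249R116, among which the members are counted. By permutation test, two-sided with 100000 resamples and Benjamini-Hochberg adjustment over those 593 probes, 43 of the 49 members passed with a positive r and 0 with a negative one. The background was 11.6%: 69 of the 593 probes passed with a positive r, the 43 members among them. With a negative r 233 of the 593 passed, so passing in either direction was common among the variable probes. The resamples moved values freely among the 48 smolts and took no account of slide. Where smolts of a slide are alike, such p-values can come out too small and such counts too large. The highest was C151R127, with r = 0.99 and rho = 0.92 (permutation adjusted p = 4.6e-05 for r, the smallest the resamples can give here), and r was 0.98 without the 2 smolts farthest from the median. C013R007 was lowest, with r = -0.22 and rho = -0.22 over the 37 smolts in which it had a value. The 3 members with an r below 0 were C013R007, C027R016 (-0.11) and C100R113 (-0.04), the last 2 named after their values were seen. Among all 18588 other probes of the array that passed the filter, 10.4% had an r of at least 0.5 with C249R116 in smolts and 12.6% an r of -0.5 or lower, so a strong correlation with it was common in either direction.

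Much of that correlation lay between slides. After centring on the slide, over the 41 smolts on 14 slides with at least 2 smolts each, the median r of the 49 members dropped to 0.07, and 7 kept an r of at least 0.5. The anchor set and the second set parted here. All 9 other probes of the anchor set stayed positive, with a median of 0.64, from 0.16 to 0.85. Only 6 of the 21 probes of the second set stayed positive, and their median was -0.08. The SD of C249R116 itself was 2.52 over all smolts and 0.63 within slides. Centring on the river left the median at 0.61. The 27 smolts between -1 and 1 gave a median r of 0.21 for the anchor set and -0.11 for the second set, and the 14 smolts below -4 gave 0.87 and 0.33. These bands were cut on C249R116 itself, and its SD was 0.42 in the first and 1.15 in the second. A lower r can follow from the narrower range alone, so nothing is concluded from the drop. In the summer and fall fish, given as a description, centring on 42 slides took the median of the anchor set from 0.78 to 0.57 and that of the second set from 0.42 to 0.15. Over fish of all stages, with values centred within stage, the intraclass correlation by slide estimates how much of the remaining variance lies between slides. It had a median of 0.29 over the members and 0.13 over the variable probes, and it was 0.41 for C249R116.

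**Figure D3:**
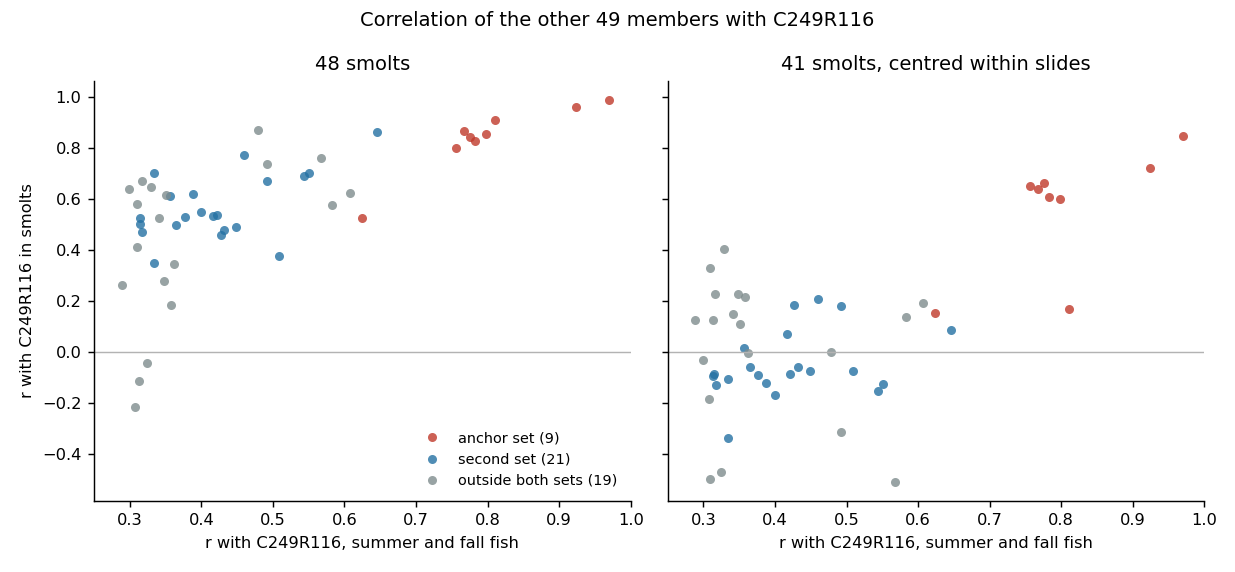
Pearson r with C249R116 in smolts (vertical axis) for the other 49 members, against the r over summer and fall fish that chose them (horizontal axis), coloured by set; the left panel uses all 48 smolts and the right panel the 41 smolts centred within their slides. After centring, the 9 other probes of the anchor set stay above 0, with a median of 0.64, and the second set lies around 0, with a median of -0.08.

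The number of probes without a value moved with C249R116 in smolts. The share of empty cells on a smolt's array correlated with C249R116 at r = -0.58 and rho = -0.57 (two-sided permutation test, adjusted p = 6.0e-05 and 0.00015 over 3 stages), and at -0.57 without the 2 farthest fish. Within slides it was 0.02. In summer (r = 0.13, adjusted p = 0.44) and fall (r = 0.02, adjusted p = 0.89) it was near 0. Its part in the smolt correlations was not tested. The members themselves were well covered: 19 had a value in every fish, and 1 had over 10% of its cells empty (28.5%).

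In most rivers smolts of the same river differed from slide to slide. The 14 smolts below -4 in C249R116 lay on 6 slides and the 27 between -1 and 1 on 13 other slides, and no slide held smolts of both kinds. The 9 Puntledge smolts ran from -8.30 to -4.72 on 2 slides and from -0.49 to -0.12 on the other 2. The 15 Capilano smolts ran from -5.35 to -3.70 on 3 slides and from -0.75 to 0.54 on the other 5. Among the 10 Chehalis smolts the 2 lowest, at -6.62 and -5.75, lay on 2 slides and the other 8, from -0.56 to 0.06, on 4. The 8 Chilliwack smolts ran from -1.90 to 0.58 and the 6 Salmon River smolts from -3.96 to -0.84. Origin differed too: Puntledge and Chehalis smolts were all hatchery fish, and Chilliwack and Salmon River smolts were all wild. Among Capilano smolts the 9 hatchery fish ran from -4.93 to 0.52 with a median of -4.24. The 6 wild ones ran from -5.35 to 0.54 with a median of -0.46. Origin and slide were not separated here, and the part of origin was not tested. On the 6 slides with a smolt below -4, 5 of 9 fish of other stages also lay below -4, and on the other 15 slides with smolts 14 of 22 did. On 3 of these 6 slides the other fish, all of summer, were low like the smolts. They read -5.82, -6.82 and -7.39 beside a Capilano smolt at -4.24, -3.61 and -4.04 beside Capilano smolts at -4.93 and -5.35, and -5.33 beside Puntledge smolts from -6.04 to -4.72. On the slide with the Chehalis smolt at -6.62 they were not: a pair of fall fish read -1.24 and -0.32, and parr replicate 9 read -1.54. Among the smolts of a slide the median range was 0.97 and the largest was 3.40.

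**Figure D4:**
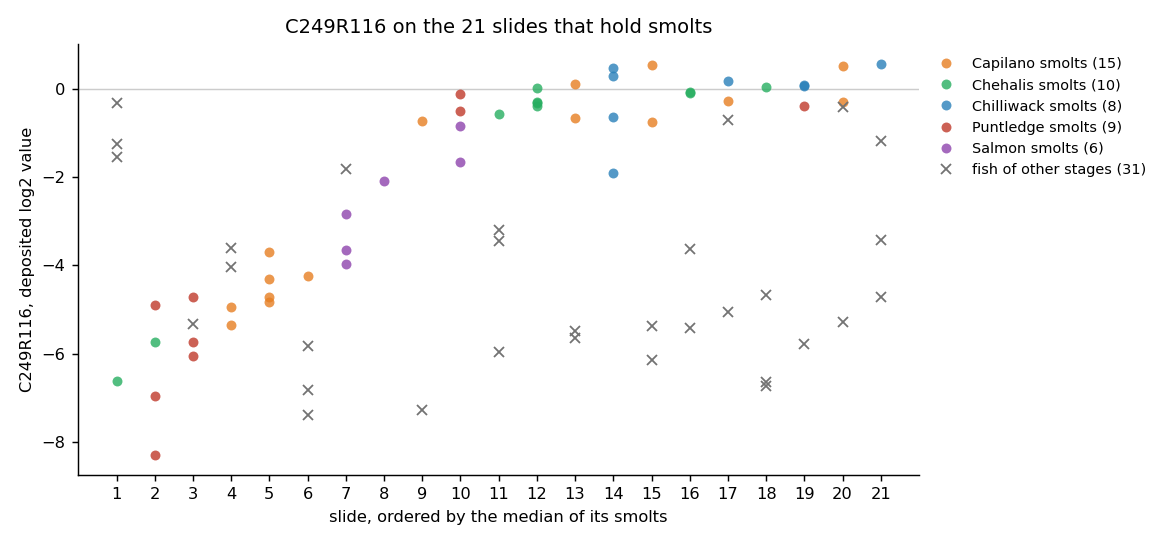
Log2 value of C249R116 (vertical axis) in the 48 smolts (points, coloured by river) and the 31 fish of other stages (crosses) on the 21 slides that hold smolts, ordered along the horizontal axis by the median of their smolts. Smolts of 1 slide mostly lie close together, though the largest range within a slide is 3.40. Smolts of the Puntledge, Capilano and Chehalis rivers lie at different levels on different slides. Of the crosses, 5 of 9 lie below -4 on the 6 slides with a smolt below -4, and 14 of 22 on the other 15.

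Rivers were compared among the smolts with limma's moderated F-test, and 21 of the 50 members differed at an adjusted p under 0.05, against a background of 21.1% of 18948 probes. Of the anchor set 8 of 10 passed, of the second set 3 of 21 and of the remaining members 10 of 19. Without the Puntledge fish 16 members passed (limma, background 9.18%), and the sets changed places: 1 of 10 of the anchor set passed and 5 of 21 of the second set, with 10 of 19 of the rest. C249R116 had a median of 0.14 in Chilliwack, -0.30 in Chehalis, -0.75 in Capilano, -2.46 in Salmon River and -4.90 in Puntledge smolts (limma adjusted p = 0.036). C232R008, the member ranked next to last, was highest in the same pair of rivers: its medians were 1.47 in Chehalis and 1.27 in Chilliwack against -0.39 in Salmon River, -0.52 in Capilano and -0.53 in Puntledge smolts (limma adjusted p = 0.0011). With slide as a random block 4 members passed, against a background of 4.46%, and C249R116 was not among them; the 4 were C108R119, C108R015, C232R008 and C045R164, all but C232R008 named after their values were seen. Each river lay on 3 or more slides, and 4 of the 14 slides with at least 2 smolts held more than 1 river.

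Smolts and parr, the comparison across smolting, split the members in opposite directions. Of the 50 members 28 differed (limma, adjusted p under 0.05; background 25.5% of 18589 probes), 18 higher and 10 lower in smolts, against backgrounds of 12% higher and 13.5% lower. The median difference was 0.22 over the members and 0.01 over all probes. In the anchor set 8 of 10 probes fell, with a median difference of -3.27 over the set, and in the second set 13 of 21 rose and 0 fell, with a median of 1.22. Of the 19 outside both sets 4 rose and 2 fell. Members move together, so these counts stand for a few patterns and not for 28 separate ones.

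C126R030 fell by 3.53 on the log2 scale (SE 0.54, limma adjusted p = 4.8e-08), and 8 of 9 parr lay above the highest smolt. C249R116 and C151R127 had the largest falls, -4.61 (SE 0.79) and -4.09 (SE 0.81). They had been picked out with those differences known and are given without a test of their own. Both are still among the 8 probes of the anchor set counted as fallen. C126R030 followed C249R116 with r = 0.96 in smolts, so its p-value is not independent of that choice. C100R113 had the largest rise. It ran from -3.68 to -2.04 in parr and from -3.13 to 2.75 in smolts, with medians of -3.15 and -0.75, a difference of 2.44 (SE 0.44, limma adjusted p = 4.0e-06). C097R060 ran from -3.42 to -1.61 in parr and from -1.99 to 2.89 in smolts, with medians of -2.06 and -0.01, a difference of 2.22 (SE 0.37, limma adjusted p = 4.8e-07). For both, the lowest smolts overlapped the parr. In the anchor set 2 probes did not fall, named after their values were seen: C113R107, at -1.08 (SE 0.74, limma adjusted p = 0.29), whose sign turns in the comparison within 1 river and year, and C088R091, which rose by 1.31 (SE 0.34, limma adjusted p = 0.0015).

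**Figure D5:**
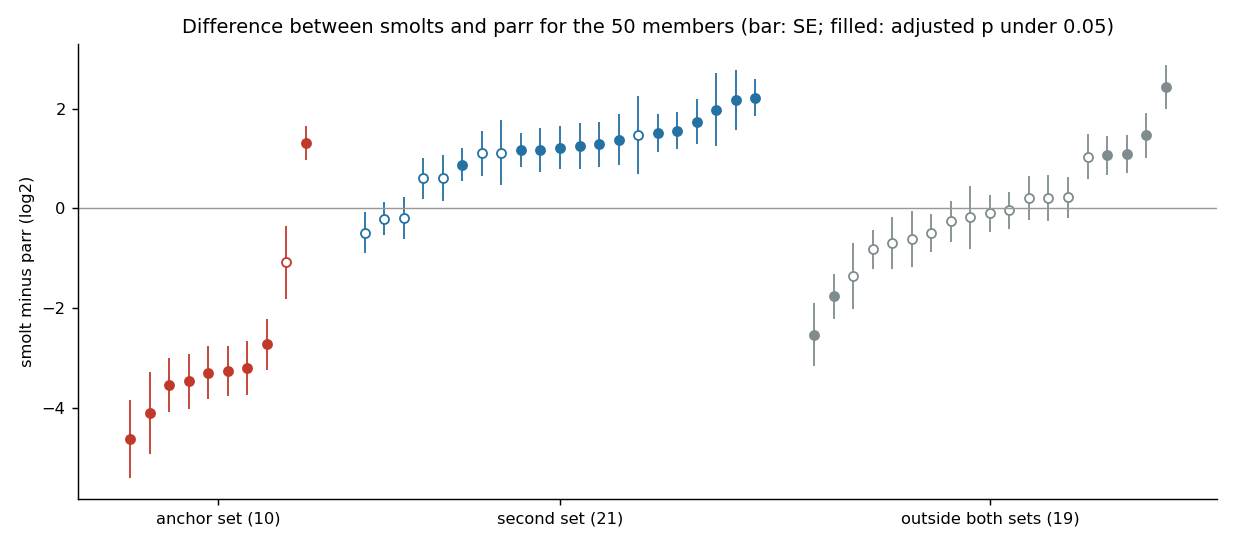
Smolt minus parr difference on the log2 scale (vertical axis, bars of 1 SE) for each of the 50 members, grouped by set and sorted within it; filled points passed limma's test at an adjusted p under 0.05. The anchor set lies mostly between -4.61 and -2.72, with 8 of 10 fallen, and 13 of the 21 probes of the second set rose.

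All parr were hatchery fish of 1 river and year. Against the 8 wild Chilliwack smolts of that year 30 members rose and 9 fell (limma, backgrounds of 14.7% and 16.6%), with 8 of 10 of the anchor set still falling and 19 of 21 of the second set rising. These smolts and the parr also differed in origin and lay on different slides. Stage, origin and slide cannot be told apart in this comparison. The other 2 of the anchor set rose. One of them was C113R107, which turned from -1.08 to 1.37 (SE 0.35, limma adjusted p = 0.0059). Only 1 slide held both parr and smolts. With slide as a fixed block 2 members passed (limma, background 1.83%), C046R130 lower at -2.80 (SE 0.82) and C097R060 higher at 1.99 (SE 0.51), the first named after its values were seen, and 12 reached an unadjusted p under 0.05. The median difference then was -2.48 in the anchor set and 0.57 in the second set. With slide as a random block 10 rose and 10 fell (backgrounds 8.27% and 9.46%). Quantile normalization left 3 rising and 10 falling (backgrounds 5.75% and 8.75%) with 2 of 21 of the second set rising and 8 of 10 of the anchor set falling. On the 3 slides that parr shared with other stages, the parr values of C249R116 were 3.07 and 2.86 beside fall fish at -5.18 and -5.98, 3.003 and 2.70 beside summer fish at -3.66 and -5.36, and, for parr replicate 9, -1.54 beside the smolt at -6.62 and fall fish at -1.24 and -0.32. Without replicate 9, 15 members rose and 11 fell, and C249R116 differed by -5.12.

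From smolts to the first ocean fish, 8 members fell and 0 rose in spring (limma, backgrounds 5.82% lower and 5.12% higher), and 41 of the 50 differences were below 0, against 48.9% of all probes. None of the anchor set passed (0 of 10, median difference 0.07), while 5 of 21 in the second set and 3 of 19 outside the sets did. C097R060, which was higher in smolts than in parr, ran from -2.52 to 0.16 in spring with a median of -1.60, a fall of 1.41 from smolts (SE 0.30, limma adjusted p = 0.0012). C214R146 ran from -2.92 to 1.80 in smolts and from -3.43 to -0.94 in spring, with medians of -0.50 and -1.83, a difference of -1.30 (SE 0.33, limma adjusted p = 0.0058). Spring fish of both probes lay inside the range of the smolts or just below it. Among wild fish of 2009 alone 1 member passed (C051R007, -1.58, SE 0.42, named after its values were seen; background 1.39%), and C097R060, at -0.89, and C214R146, at -1.07, did not. Without spring replicate 2, 10 members fell. With slide as a fixed block 1 passed (C112R040, -1.91, SE 0.54, likewise; background 1.29%), and the median difference of the anchor set went from 0.07 to -0.97, with 1 of 10 above 0.

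From spring to summer C249R116 was lower by 0.93 (SE 0.62), and the median difference of the anchor set was -0.18. Leaving out single spring fish moved the C249R116 difference between -1.19 and -0.59, the latter without spring replicate 2. The summer values were among those that chose the members, so counts of members past the threshold are given here with nothing read from them. In limma's fit it was 0 of 50, with 3 at an unadjusted p under 0.05, and the background was 0.0753%, or 14 of 18589 probes. The differences were larger among wild southern Strait of Georgia fish of 2009. There all 10 probes of the anchor set were lower in summer, with a median of -0.84, and C249R116 differed by -2.18 (SE 0.80). This subset includes spring replicate 2, and its values were not computed without that fish. Of the 50 members, 38 were below 0 against 49.5% of all probes, 16 had an unadjusted p under 0.05, and 1 passed, C204R155 (-1.69, SE 0.33, named after its values were seen; background 0.473%).

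Summer and fall fish are the ones that chose the members, so their difference carries no test. C249R116 was lower in fall by 1.23, C151R127 by 1.31 and C126R030 by 0.70. The median over the members was -0.11, 29 of 50 differences were below 0, and all 10 probes of the anchor set were lower in fall, by 0.70 to 1.31.

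The fall values also chose the members, so the differences between winter and fall are a description too. C249R116 was higher in winter by 1.89 (SE 0.76), and 9 of 10 differences in the anchor set were above 0. In limma's fit 2 members passed as higher and 0 as lower, against backgrounds of 5.84% and 4.97%, and nothing is read from that count. C011R100 ran from -2.74 to 2.89 in fall with a median of -1.32, and from -1.50 to 2.53 in winter with a median of -0.47, a difference of 1.41 (SE 0.44). C076R046 ran from -2.64 to 3.58 in fall and from -2.17 to 2.76 in winter, with medians of -1.30 and 0.05, a difference of 1.32 (SE 0.40). Winter fish lay within the range of the fall fish for both. Leaving out winter replicate 1, 5 or 7 left 0 members past the threshold, and leaving out replicate 9 left 6. Among west coast fish of 2009 all 10 probes of the anchor set were higher in winter, with a median of 1.11, and 6 of the 50 members were below 0; 0 passed (limma, 24 of 50 at an unadjusted p under 0.05, background 0.0861%).

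The other labels of the summer and fall fish were not used by the rule, but the fish were, and the members move together there by construction. Differences by sex, origin and area are therefore given as a description. C249R116 differed by 0.66 (SE 0.37) for females minus males, by -0.08 (SE 0.37) for hatchery minus wild fish of 2009, and by -1.14 (SE 0.52) for the west coast minus the Strait of Georgia in 2009. The counts past limma's threshold, from which nothing is read, were 0 of 50 for sex (8 at an unadjusted p under 0.05; background 0.00938%), 0 of 50 for origin (9 at an unadjusted p under 0.05; background 0%) and 0 of 50 for area (6 at an unadjusted p under 0.05; background 0%). Array position on the slide, over all 221 fish, gave 0 of 50 members (limma F-test, 3 at an unadjusted p under 0.05; background 0.0161%).

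The slope on fork length within these fish, with stage in the fit, is a description as well. It was -0.21 per cm (SE 0.06) for C249R116, -0.21 (SE 0.06) for C151R127 and -0.13 (SE 0.04) for C108R119, the last named after its values were seen. For C249R116 it was -0.17 in fall fish alone, -0.30 in summer fish alone and -0.24 (SE 0.04) with slide as a fixed block. In limma's fit 3 of 50 members passed (background 2.54%), all with a slope below 0. With slide as a fixed block 4 did (background 0.601%), all of the anchor set, namely C249R116, C151R127, C126R030 at -0.14 per cm and C113R107 at -0.20. With sex, origin, area and year as further covariates 0 of 50 did (9 at an unadjusted p under 0.05; background 1.76%).

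Outside parr C249R116 ran against the probe C189R113, which led another group of 50 variable probes. Over the summer and fall fish the r of the members with C189R113 ran from -0.77 to -0.15, which the assignment to the best anchor favours, and their r with C108R116 from -0.19 to 0.04. In fish left out of the correlations of the choice, C249R116 and C189R113 had an r of -0.87 in smolts and -0.94 in spring (-0.91 without replicate 2). It was -0.76 in winter and -0.93 in parr. The value in parr rests on 1 fish, since it was 0.49 over the 8 parr without replicate 9. The medians of C189R113 were -5.69 (parr), -2.28 (smolts) and 0.76 (fall), where those of C249R116 were 3.003, -0.69 and -4.83. Both are ratios to the same pool on the same arrays, so these correlations are descriptions of arrays that the probes share.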

How the data were processed

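The deposited file gives a value per probe and fish; per the labels' protocols, RNA of single fish and a reference pool were labelled with different Alexa dyes and hybridised together, with no dye swap. The authors had already normalized the values (array medians lie between -0.0109 and 0.0326); spot quantification, background correction, normalization, log base, direction and the filter behind the empty cells (47.3%) are not stated in the labels or file headers. A second deposited file holds the same values, here read as log2, with 3168 more empty cells in 1 parr. All value columns were used; 60 control rows were left out.

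Members and lists were chosen with earlier results of these data known. Probes with a value in at least 50% of the fish of each group were tested in R 4.3.3 with limma 3.58.1 (lmFit, eBayes; data.table), Benjamini-Hochberg over all probes tested, threshold 0.05. Stage comparisons came from 1 fit of 221 fish with a coefficient per stage; comparisons within summer and fall had stage as covariate. The random block for slide used a correlation estimated on 2000 probes. Correlations used permutation tests coded with numpy 2.4.6, and the average-linkage grouping used scipy 1.17.1. The stage fits were tested on simulated data with independent fish and no slide effect, so that check does not bear on differences between slides. Named probes are C249R116, the 2 next in r, the 2 on each side of the limit, the highest and lowest r in smolts, and per comparison at most 2 that rose and 2 that fell with the largest differences; others are said to be chosen after their values were seen. Alternatives are given in the closing section.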

Additional observations from a re-analysis of the deposited data

Results flagged for a closer look

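Among the 28 sets of 4 to 10 fish examined at 8 named probes, 4 held a fish far from the others. For a single set chance alone gives about 1 in 20. The probes move together and share fish, so that rate cannot be set against the count. All 4 were parr replicate 9. It read -1.54 at C249R116 against 2.70 to 3.35 in the other 8 parr, -1.12 at C151R127 against 1.75 to 3.02, -0.92 at C126R030 against 2.40 to 3.85, and -2.63 at C011R100 against -1.64 to -0.85. This fish was hybridised on a slide with no other parr, and the part of the slide was not tested.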

How the results depend on the processing

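Of the 22 values given for 15 members named in the stage and fork length comparisons, 21 kept their direction under every alternative run for them; C113R107 in smolts minus parr, at -1.08, turned to 1.37 in the Chilliwack fish of 2008 and to 0.53 with year and origin as covariates. Counts of members past the threshold moved by more than 1.5 times as follows. For smolts and parr the count was 28, and it was 2 under a fixed block for slide and 13 under quantile normalization; leaving out 1 parr gave 21 to 27. For spring and smolts 8 passed, 1 with slide as a fixed block, 5 under quantile normalization, 4 with year and origin as covariates and 1 in wild fish of 2009; leaving out 1 spring fish gave 7 to 10. For summer and spring 0 passed and 1 did in the matched subset. For winter and fall 2 passed, 1 with slide as a fixed block, 6 with year and origin as covariates, 4 with only the groups compared and 0 in west coast fish of 2009; leaving out 1 winter fish gave 0 to 6. For rivers 21 passed, 4 with slide as a random block and 9 in smolts of 2009. For fork length 3 passed, 1 under eBayes with trend and robust and 0 under quantile normalization, with the other labels as covariates, in fall fish alone or in summer fish alone. The other alternatives stayed within 1.5 times. Of the 50 members, 29 were kept when values were centred on the slide before the choice and 10 with no minimum SD, and 37 to 44 under the other 6 alternatives; all 10 of the anchor set were kept under each of these 8 except the one with no minimum SD, which kept 9. The 34 smolt correlations of at least 0.5 became 7 within slides, 2 in the smolts from -1 to 1 alone and 13 in those below -4 alone, alternatives chosen after seeing the data. Both bands were cut on C249R116 itself, so a lower r there can follow from the narrower range alone. The cause of these changes was not tested. No paired analysis was possible because the replicate numbers follow accession order and pair no fish across stages.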
